A study of Mus musculus with 2 samples.

Results

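The genes described here encode the proteins of the cytosolic ribosome. They were chosen by name: protein-coding genes of the GENCODE mouse annotation whose symbol is Rpl, Rps or Rplp followed by a number and at most a single letter a or x, together with Rpsa. No measured value entered the choice. It gave 76 of 21853 protein-coding genes, of which 30 encode proteins of the small subunit, 43 proteins of the large subunit and 3 the stalk proteins Rplp0, Rplp1 and Rplp2. The study measured accessible chromatin by ATAC-seq, in which the Tn5 transposase cuts open DNA and tags it for sequencing, in megakaryocyte-erythroid progenitors (MEP), the marrow cells that precede red cells and platelets. There was a single group of 2 libraries, called replicates 1 and 2, each from 50000 primary cells of adult male C57BL/6J mice aged 5 to 6 weeks with no treatment or engineered allele named. The libraries have separate biosample entries but name 1 donor entry, so separate animals cannot be assumed, and the spread between them may be technical. The sequencers are named for replicate 1 only.

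Each ribosome joins a small subunit, which decodes the messenger RNA, to a large subunit, which forms the peptide bond, and nearly every protein of either subunit is needed in equal number. Their genes are transcribed in all growing cells, from promoters rich in CpG. Many of their transcripts start with a C followed by a run of pyrimidines, the 5′ terminal oligopyrimidine (TOP) sequence, through which mTOR signalling controls their translation. Erythroid progenitors are known to be sensitive to their dose: loss of 1 copy of any of several of these genes causes Diamond-Blackfan anaemia, a failure of red cell formation.

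The labelled cell type was checked against marker genes. All 8 erythroid markers, among them Gata1, Klf1, Epor, Tfrc, Hba-a1, Hbb-bs and Nfe2, had an accessible promoter in both libraries. Of the 5 megakaryocyte markers only Gp1ba did. In the longer lists that the authors call pseudoreplicated, Itga2b, Gp9 and Pf4 were also listed in both libraries. Of the stem and progenitor markers, Kit was accessible in both libraries, and Cd34 and Flt3 were listed in both longer lists. None of 5 granulocyte and macrophage, 3 B cell and 3 T cell markers was listed at its promoter in any of these lists. The lists give no read counts, so the depth behind each value is unknown.

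Nearly all ribosomal protein promoters were accessible. A promoter was called accessible in a library when a region of its IDR-thresholded list (peaks whose rank repeats between random splits of that library) overlapped the 1 kb to either side of any annotated start of the gene. The promoters of 70 of the 76 genes were called in both libraries, or 92.1% (Wilson 95% interval 83.8 to 96.3, counting error only). Over all protein-coding genes the share was 45.7%. Replicate 1 alone called 72 ribosomal protein promoters against 47.7% of all genes, and replicate 2 alone called 73 against 47.9%. By subunit the counts were 27 of 30 for the small subunit, 40 of 43 for the large subunit and 3 of 3 for the stalk. In the longer pseudoreplicated lists all 76 were present in both libraries (56.5% of all genes), and all 76 were in the conservative list, which was made by comparing the true replicates (54.5% of all genes).

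The 6 promoters missing from 1 or both IDR-thresholded lists were weak in both libraries. Here and below, fold is the deposited ratio of the strongest peak of a region. It was read as enrichment at the summit over the local background of the library. Rpl36, a large subunit protein gene, was absent from both lists, and its fold in the longer lists was 3.09 in replicate 1 and 3.40 in replicate 2. Rps15 and Rpl8 were among those called in replicate 2 only. Rps15 had a fold of 6.05 in replicate 2 and 4.50 in the longer list of replicate 1. Rpl8, whose product lies close to the peptidyl transferase centre, had 5.44 and 4.28. In both the library that missed the promoter was also the one with the lower fold. Low fold alone did not mark the missed promoters, since Rpl26 was called in both libraries with 4.97 and 5.03. Rps18 and Rpl4 were called in replicate 1 only. Rps18 had a fold of 5.59 there and 4.74 in the longer list of replicate 2. Rpl4, whose product lines the exit tunnel, had 6.02 and 5.26, and its strongest summit lay 490 bp upstream of its nearest start, in a window that also holds a start of Zwilch on the opposite strand. The region that holds the Rpl4 start itself was weaker, with folds of 5.25 and 4.49 in the longer lists.

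Among accessible promoters, those of ribosomal protein genes had a lower median fold than the rest. Across the 70 ribosomal protein promoters called in both libraries, the median fold was 7.23 in replicate 1 and 7.68 in replicate 2. Across all 9988 promoters called in both libraries it was 8.39 and 8.83. The mean of the 2 libraries had a median of 7.60 over the ribosomal protein promoters against 8.62 over all accessible promoters, and 49 of the 70 lay below the latter. Ranked among all accessible promoters by this mean, the ribosomal protein promoters had a median percentile of 34.0. None was in the highest 10%, 3 were in the highest 25% and 27 in the lowest 25%. Their folds ran from 4.75 to 11.4 in replicate 1 and from 4.78 to 11.4 in replicate 2. All accessible promoters, a far larger set, reached 22.6 in each. The lower and upper quartiles of the mean fold were 6.34 and 8.73, against 7.03 and 10.3 over all accessible promoters. In the longer pseudoreplicated lists, which hold all 76 genes, the gap was smaller, with medians of 7.49 and 7.87. Ranked by the −log10 p of the strongest peak, their median percentile was 42.8. When only the upper 50% of each list by fold was kept (at least 7.32 and 7.79), 28 of the 76 genes were still called in both libraries (36.8%) against 27.7% of all genes.

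**Figure D1:**
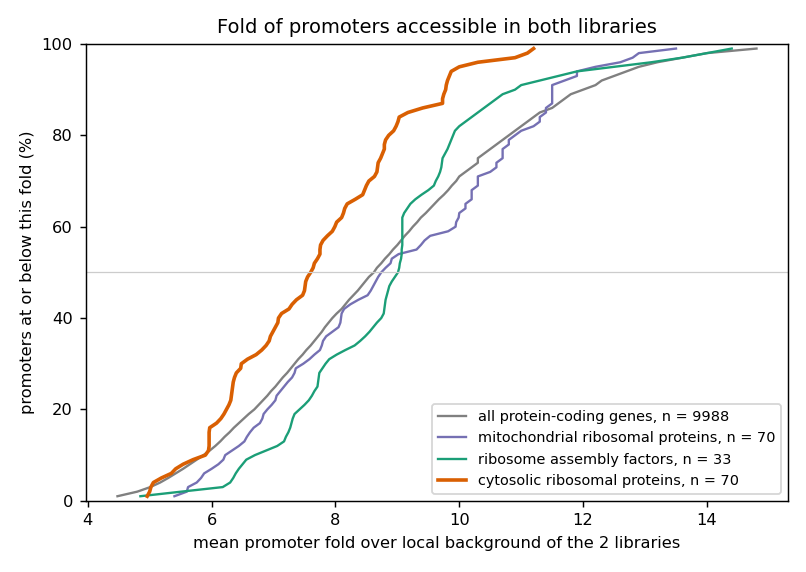
Cumulative distribution of promoter fold (x axis, mean of the 2 libraries; y axis, percent of promoters at or below that fold, percentiles 1 to 99) for promoters accessible in both libraries. The 70 cytosolic ribosomal protein promoters (thick line) lie to the left of all 9988 accessible promoters over most of the range, with medians of 7.60 and 8.62, and the 70 mitochondrial ribosomal protein promoters have a median of 8.74.

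Genes of related function did not all share this position. The promoters of mitochondrial ribosomal proteins, whose genes are also in the nucleus, were accessible in 70 of 78 cases with a median fold of 8.74 and a median percentile of 52.1. Ribosome assembly factors were accessible in 33 of 34 cases with a median fold of 9.01 and a percentile of 56.2. Among them Ltv1, which acts in small subunit maturation, had folds of 15.3 and 14.4, and Nop10, a component of H/ACA particles, had 4.26 and 4.11. The RNA polymerase I group, which transcribes the ribosomal RNA precursor, was accessible in 11 of 11 cases with a median of 8.93. Translation factors were accessible in 30 of 31 cases with a median of 8.13 and a percentile of 42.6, between the ribosomal protein genes and the rest. Eef1a1, the elongation factor that delivers transfer RNA, had 4.79 and 5.87. Eef2, the translocation factor, was in neither IDR-thresholded list. These are counts and medians of lists, and differences between the lists were not tested.

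Within the small subunit the median fold over 27 accessible promoters was 7.98, with 19 below the median of all accessible promoters. Rps13 had the highest mean fold, at 9.54 in replicate 1 and 10.1 in replicate 2. Rps6, whose product is the classical substrate of the S6 kinases, had 9.58 and 9.97, the highest of replicate 1, and Rps27 was highest in replicate 2 with 10.3. Rpsa, the protein also known as the laminin receptor, had 7.30 and 8.23, and the X-linked Rps4x had 7.95 and 8.32. Rps13 and Rps6 were above the median of all accessible promoters in both libraries, and Rpsa and Rps4x below it. At the other end, Rps12 had 5.36 and 4.78, the fourth lowest of all 70 by mean fold, and Rps23 had 5.67 and 5.20.

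Within the large subunit the median was 7.28 over 40 accessible promoters, with 28 below the median of all accessible promoters. Rpl15, a core protein of the subunit, had the highest fold of the family at 11.4 in each library (mean 11.4 ± 0.035, SD, n = 2). Rpl27 followed with 11.3 and 10.9, Rpl31 with 9.88 and 10.4 and Rpl30 with 10 and 9.77. Rpl22, which has a close paralogue in Rpl22l1, had 9.81 and 9.84. These 5 lay above the median of all accessible promoters in both libraries. Rpl3, which reaches the peptidyl transferase centre, had 6.56 and 6.86, and Rpl10, one of the last proteins to join the subunit, had 7.08 and 7.07. The lowest were Rpl26 with 4.97 and 5.03, Rpl38 with 5.11 and 4.92 and Rpl35 with 5.32 and 5.34. Rpl38 is the gene mutated in the Tail-short mouse, and Rpl26 is known to bind p53 messenger RNA.

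The 3 stalk genes encode proteins that bind the translation factors with GTPase activity and work as 1 complex, in which Rplp0 anchors Rplp1 and Rplp2. Their promoters differed widely. Rplp0 had a fold of 10.8 in replicate 1 and 11.2 in replicate 2, the third highest of the family. Rplp1 had 5.83 and 6.04, and Rplp2 had 5.54 and 5.72, both in the lowest 25% of accessible promoters. The gap of Rplp0 to the other 2 was far larger than the SD between libraries, which was 0.34 for Rplp0, 0.149 for Rplp1 and 0.13 for Rplp2 (n = 2).

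**Figure D2:**
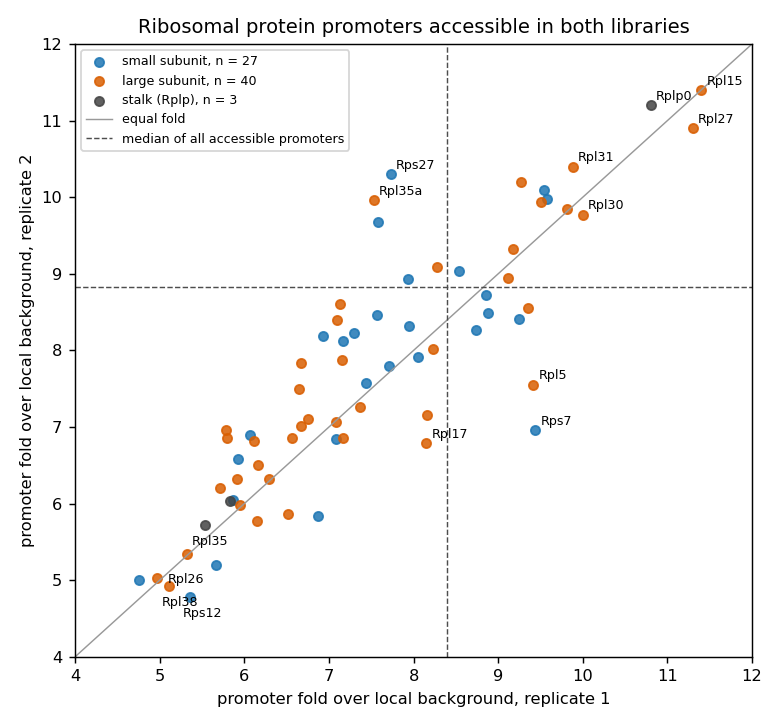
Promoter fold over local background in replicate 1 (x axis) and replicate 2 (y axis) for the 70 ribosomal protein genes accessible in both libraries, coloured by subunit, with the medians of all accessible promoters as dashed lines. Rpl15, Rpl27 and Rplp0 stand at the top in both libraries, and Rps27 and Rpl35a lie above and Rps7, Rpl5 and Rpl17 below the line of equal fold.

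Promoters near the ends of this range are shown, with that of Rps19, the gene most often mutated in Diamond-Blackfan anaemia. Each runs from 100 bases before to 20 bases after the start given by RefSeq on GRCm38.p6, 5′ to 3′ on the strand of the gene. Capitals mark 10 bases around the start (3 before it and the first 7 of the transcript) and matches to the motifs described further on. The lines for Rpl15 (chr14:18270967-18271086, minus strand), Rpl27 (chr11:101442145-101442264, plus), Rplp0 (chr5:115559367-115559486, plus), Rpl26 (chr11:68901466-68901585, plus), Rpl38 (chr11:114668480-114668599, plus) and Rps19 (chr7:24884492-24884611, plus) are:
Rpl15: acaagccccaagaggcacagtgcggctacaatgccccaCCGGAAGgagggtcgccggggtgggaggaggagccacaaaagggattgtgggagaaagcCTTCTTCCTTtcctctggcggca
Rpl27: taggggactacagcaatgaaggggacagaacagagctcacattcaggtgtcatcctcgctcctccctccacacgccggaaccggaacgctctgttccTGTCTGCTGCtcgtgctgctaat
Rplp0: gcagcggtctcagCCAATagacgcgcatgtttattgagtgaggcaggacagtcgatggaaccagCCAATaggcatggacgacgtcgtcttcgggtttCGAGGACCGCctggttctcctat
Rpl26: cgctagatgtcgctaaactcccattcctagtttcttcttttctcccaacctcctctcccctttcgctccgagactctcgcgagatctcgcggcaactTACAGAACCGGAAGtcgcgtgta
Rpl38: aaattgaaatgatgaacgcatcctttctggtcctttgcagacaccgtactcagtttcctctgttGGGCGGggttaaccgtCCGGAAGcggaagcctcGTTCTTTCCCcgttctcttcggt
Rps19: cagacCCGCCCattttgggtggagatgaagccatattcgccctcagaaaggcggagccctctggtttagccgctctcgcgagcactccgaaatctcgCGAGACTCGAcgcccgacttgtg

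An ETS motif is marked in the windows of Rpl15, at the top of the fold range, and of Rpl26 and Rpl38, at the bottom. The windows of Rpl27, Rplp0 and Rps19 show no marked ETS motif. The 10 bases around the start were all pyrimidines in Rpl15, 9 of 10 in Rpl38 and 7 of 10 in Rpl27, and 4 of 10 in Rplp0, Rpl26 and Rps19. Neither feature separated the strongest from the weakest of these 6 promoters.

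Genes of Diamond-Blackfan anaemia were treated as a list of 18 members. Of these, 17 were accessible in both libraries, with a median fold of 8.20 and 10 below the median of all accessible promoters. Rps19 had folds of 8.05 and 7.91. Rpl5 and Rpl11, which bind 5S ribosomal RNA and can hold Mdm2 away from p53, had 9.41 and 7.55, and 9.51 and 9.94. Rpl11 was thus above the median of all promoters in both libraries and Rpl5 in replicate 1 only. Rps24, needed to process the ribosomal RNA of the small subunit, had 6.87 and 5.84, and Rps26, which lies at the messenger RNA exit, had 6.93 and 8.19. Rps14, whose loss is a feature of the 5q- syndrome, had 7.57 and 8.46.

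The libraries gave similar orders. Across the 70 promoters the folds of replicates 1 and 2 had a Pearson correlation of 0.864 and a Spearman correlation of 0.864. Over all 9988 promoters these were 0.922 and 0.919. They are correlations across genes, which share each library, and no p is given. In 66 of the 70 genes (94.3%) the 2 folds were within 1.25 times of each other, against 92.8% of all accessible promoters. Replicate 2 was higher for 46 of the 70 (65.7%) and for 66.7% of all accessible promoters, so the ribosomal protein genes shared the shift of the whole list. The widest gaps towards replicate 2 were at Rps27 (7.73 and 10.3) and Rpl35a (7.53 and 9.96). Those towards replicate 1 were at Rps7 (9.44 and 6.96), Rpl5 and Rpl17 (8.15 and 6.79). For these 5 genes the SD between libraries was between 0.962 and 1.8, so their place in the family is poorly fixed.

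The promoter regions were about as wide as those of other genes. A region here is the merged span of overlapping or touching peaks. The mean width of the 2 libraries had a median of 784 bp, against 826 bp over all accessible promoters. By library the medians were 812 bp and 776 bp, against 820 bp and 822 bp, and in the conservative list 888 bp against 901 bp. The widest was Rpl39, a small protein at the exit of the tunnel, at 972 bp in replicate 1 and 1526 bp in replicate 2. Rpl35a had 1252 and 1011 bp, Rps27a, which is made as a fusion with ubiquitin, had 1181 and 987 bp, Rps25 had 1070 and 1086 bp, and Rpl7 had 1101 and 1026 bp. The order of the widest was not stable between libraries, except that Rps25 and Rpl7 differed little. The narrowest were Rpl14 with 350 and 345 bp, Rps26 with 327 and 487 bp, Rpl12 with 420 and 446 bp, Rps10 with 469 and 426 bp, and Rpl19 with 225 and 691 bp. Width between libraries had a Spearman correlation of 0.670 across the 70 genes and 0.744 across all accessible promoters. Width and fold were only loosely related, with a Spearman correlation of 0.326 across the 70 genes and 0.163 across all.

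The strongest summit usually lay at the start of the gene. Its median position was 25 bp upstream of the nearest annotated start in replicate 1 and 30 bp upstream in replicate 2, against 42 and 43 bp upstream for all accessible promoters. It lay within 150 bp of a start in 61 of 70 genes in each library (87.1%), against 73.7% and 72.7% of all accessible promoters. Measured from the RefSeq starts, the share was 44 of 53 genes (83.0%) against 67.8%, while the median position was 54 bp upstream, close to the 51.5 bp of all. The difference in share was therefore present with either set of starts and that in median position was not. The higher share was not particular to this family. From the GENCODE starts it was 85.7% and 82.9% for mitochondrial ribosomal proteins and 90.9% and 81.8% for assembly factors. Translation factors had 70.0% and 73.3%, and the RNA polymerase I group 63.6% in each library.

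Some genes stood apart. The strongest region within reach of Rpl41, the gene of the shortest ribosomal protein, had its summit 1253 bp downstream in replicate 1 and 1213 bp in replicate 2, and it holds the start of Zc3h10. The region at the start of Rpl41 itself had folds of 5.47 and 6.03 and widths of 628 and 724 bp, against 5.91 and 6.32 for the neighbouring one. At Rpl35 the summit lay 424 and 432 bp downstream of the nearest GENCODE start, and the RefSeq start lies 493 bp from that start. At Rpl32 it lay 322 bp upstream in both libraries. At Rps25 it lay 216 and 224 bp downstream and at Rps23 203 and 199 bp downstream. From the RefSeq starts (mean of the libraries, negative upstream) the summit was at -65 bp for Rpl35, 37 bp for Rps23 and -355 bp for Rps25. These positions thus depend on the annotation. At Rpl10 the position differed between libraries, 469 bp upstream in replicate 1 and 128 bp upstream in replicate 2. Requiring the start itself to lie inside the region removed Rpl35 alone from the 70.

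**Figure D3:**
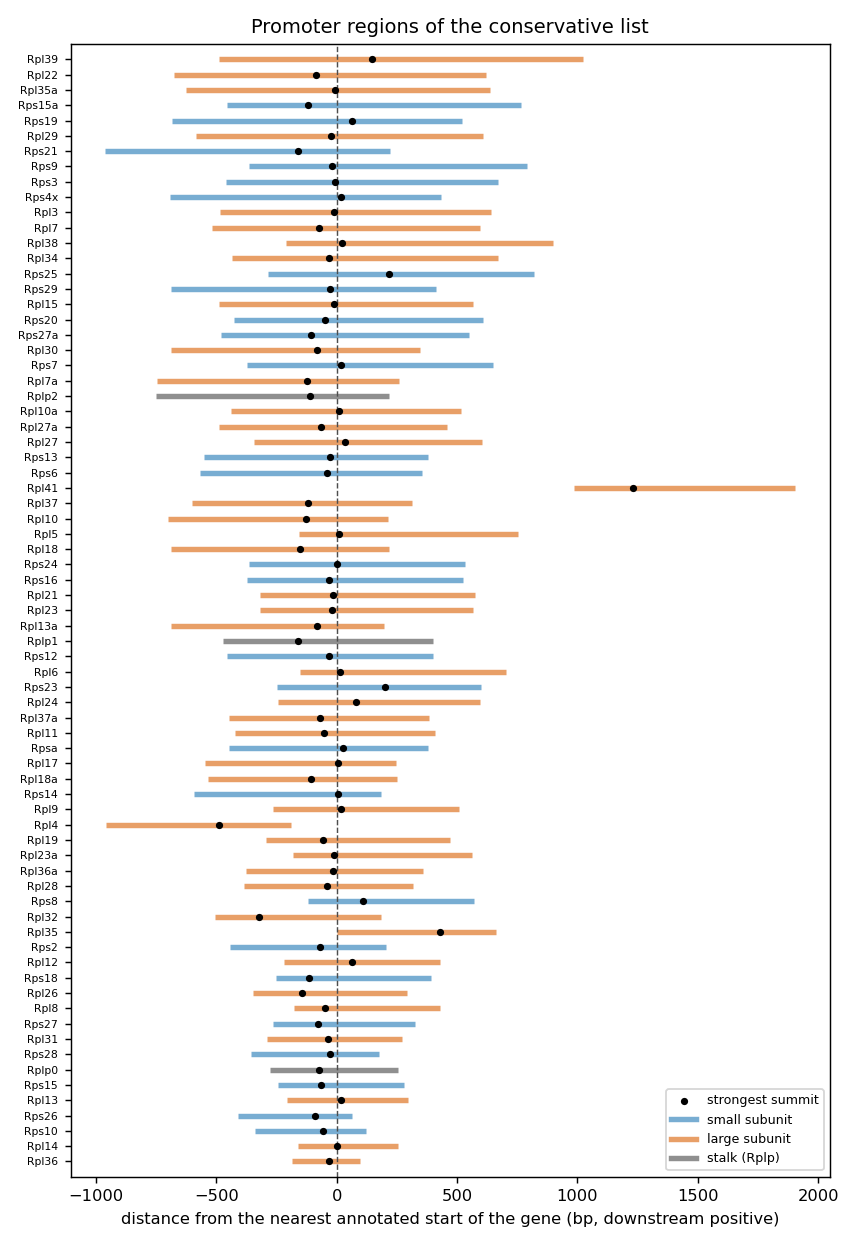
Span of the strongest promoter region in the conservative list for 73 of the 76 genes, in bp from the annotated start nearest to its summit (x axis, downstream positive), ordered by width (y axis) and coloured by subunit, with the strongest summit as a dot. Most spans reach to both sides of the start, and Rpl41 and Rpl4 are shown by regions that lie beside the start.

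Some of these regions are shared with a neighbour. In 12 of the 70 genes (17.1%) the region held a start of another protein-coding gene in both libraries, against 19.9% of all accessible promoters. For 10 of them that gene is read from the opposite strand and starts within 1 kb: Nkiras1 at Rpl15, Lrsam1 at Rpl12, Sphk2 at Rpl18, Iqcg at Rpl35a, Lias at Rpl9, Med22 at Rpl7a, Trappc4 at Rps25, Rab13 at Rps27, Clhc1 at Rps27a and Ndufa7 at Rps28. The others are Zc3h10 at Rpl41, where the region holds no start of Rpl41 itself, and the readthrough gene RPS10-NUDT3 at Rps10. Where a region holds the starts of both genes, its accessibility cannot be assigned to either. The 58 genes with no other start in the region had a median fold of 7.60, and the 12 with a start of another gene in it 7.63.

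Sequence features were counted in the RefSeq promoters, which run from 250 bases before to 50 after the start and cover 56 of the 76 genes. The table matched 16530 genes in all, 7993 of them accessible in both libraries. For Rpl18 the sequence searched lies outside the promoter region described above. The strongest summit of that region was at -2767 bp from the nearest RefSeq start (mean of the libraries, negative upstream). The matches and start bases of Rpl18 are kept in the counts below. The letters searched on both strands were CCGGAAG for ETS factors, TGACGTCA for the cAMP response element (CRE), AAGATGGC for YY1, GGGCGG for the GC box, CCAAT for NF-Y, CACGTG for the E-box and AGATAA for GATA factors, with the motif of NRF1. TATAAA was searched on the sense strand from 40 to 20 bases before the start. No motif contains another, and overlapping matches of different motifs were each counted. A match describes the letters and does not show binding.

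The ETS motif was in 21 of the 56 promoters (37.5%), against 21.4% of all accessible promoters in the table and 12.4% of all its promoters. The mitochondrial ribosomal protein promoters had it about as often, at 36.2%. It was in the promoters of Rpl15, Rpl11, Rpl31, Rps6 and Rpsa, among others. The CRE was in 5 promoters, those of Rpl13, Rpl18, Rpl26, Rpl27a and Rps9 (8.93%, against 3.74% and 2.41%). The match of Rpl18 lies outside its accessible promoter region. The YY1 motif was in 4, those of Rpl13a, Rpl35a, Rps15a and Rps27 (7.14%, against 5.43% and 3.27%), and in 17.4% of mitochondrial ribosomal protein promoters. Counts this small fix the shares only loosely.

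The GC box and CCAAT motifs were less frequent than in accessible promoters at large. The GC box was in 58.9% of the 56 ribosomal protein promoters, against 67.6% of accessible promoters and 48.4% of all. CCAAT was in 32.1%, against 41.7% and 38.6%. Among the 53 of these genes accessible in both libraries the shares were 62.3% and 34.0%. Mitochondrial ribosomal protein promoters had 47.8% and 39.1%. With 56 promoters these shares are fixed only loosely, and the differences were not tested. NRF1 and the E-box were in 5 promoters each (8.93%). Accessible promoters had 11.8% and 10.8%, and all promoters 6.84% and 8.10%. Counts this small do not set the ribosomal protein promoters apart from either set. The GATA motif, of interest because GATA1 is the main erythroid factor of this family, was in 4 promoters (7.14% against 5.97%), those of Rpl19, Rpl24, Rpl36a and Rps4x. TATAAA was in 0 of 56 promoters at that place, against 0.926% of accessible promoters and 2.80% of all. The median GC content was 57.3%, against 61.0% of accessible promoters and 57.0% of all. The observed to expected ratio of CpG was 0.890, above the 0.790 of accessible promoters and the 0.602 of all.

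The bases around the start also differed from those of other genes. The first base was C in 18 of 56 promoters (32.1%), against 14.1% of accessible promoters and 14.0% of all. At least 8 of the 10 bases around the start were pyrimidines in 19 promoters (33.9%), against 10.1% and 9.62%. Rpl18, whose RefSeq start lies outside its accessible promoter region, is among the 19. All 10 were pyrimidines in 6 promoters (10.7%), against 0.726% and 0.678%, and in 0 of the 69 mitochondrial ribosomal protein promoters. Mitochondrial ribosomal proteins had C at the start in 14.5%. The 6 starts, chosen because all 10 bases were pyrimidines, are shown with 12 bases before the start and the first 13 of the transcript, capitals marking the 10 bases counted: Rpl15 (chr14:18270974-18270998, minus strand), Rpl27a (chr7:109519183-109519207, plus), Rpl28 (chr7:4792953-4792977, plus), Rpl35 (chr2:39005119-39005143, minus), Rpl7a (chr2:26910795-26910819, plus) and Rps10 (chr17:27635232-27635256, minus).
Rpl15: ggagaaagcCTTCTTCCTTtcctct
Rpl27a: ttcgtgagcTCCTCCCTTTtccctt
Rpl28: cctctcgtgTCTCTCTTTCcgtctc
Rpl35: ccccgccctTTCCTCTTTCtctcga
Rpl7a: ccctcttctTTCTTTCTCCagcagc
Rps10: ccgcgcacgCCCCTTCCTTtccagc

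These values depend on which start is used. The RefSeq start equals a GENCODE start in 14 of the 56 genes. At the GENCODE principal starts of the same genes, C was again the first base in 32.1%, against 16.4% of accessible promoters. At least 8 pyrimidines were found in 25% against 9.35%, and all 10 in 2 genes (3.57%) against 0.688%. The excess over other genes was present with both annotations, and fewer of the 56 genes reached 8 or 10 pyrimidines with GENCODE.

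**Figure D4:**
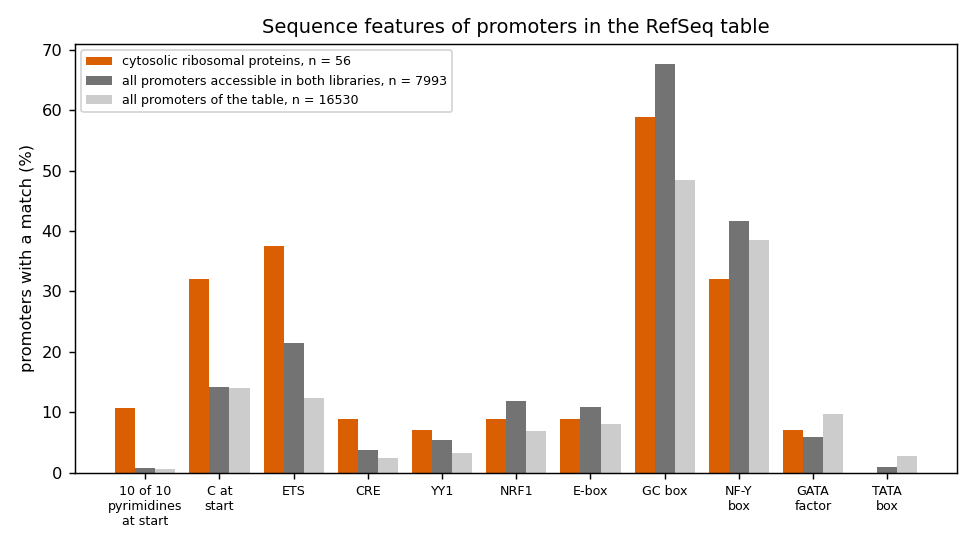
Share of promoters (y axis, percent) with each sequence feature (x axis) among 56 cytosolic ribosomal protein promoters, 7993 promoters accessible in both libraries and all 16530 promoters of the RefSeq table. The pyrimidine start (10.7%), C at the start (32.1%) and the ETS motif (37.5%) are more frequent in the ribosomal protein promoters than in either comparison set. The GC box (58.9%) and NF-Y box (32.1%) are less frequent than in accessible promoters. The differences were not tested.

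Distal regions lay near most ribosomal protein genes. Distal regions were those of the conservative list more than 1 kb from any protein-coding start, and they were counted within 50 kb of the most upstream start of the gene, which does not show the gene they act on. At least 1 was found at 72 of the 76 genes (94.7%), against 71.6% of all genes, and at least 5 at 21 genes (27.6%) against 16.4%. The mean was 3.47 per gene against 2.29, and the median 3 against 2. A share above that of all genes was not particular to this family. It was 94.1% for assembly factors, 93.5% for translation factors and 88.5% for mitochondrial ribosomal proteins, with means of 2.74, 3.74 and 2.72. The RNA polymerase I group had 90.9% and a mean of 2.27. Accessible genes with an unshared region had 88.2% and a mean of 3.00. Rpl4, Rpl7, Rpl23 and Rps27 had none. The ribosomal protein genes also had more neighbours, with a mean of 3.54 other protein-coding genes starting in the same window against 2.27. When a region was counted only for the gene with the nearest start, the means were 1.08 and 1.01. The part of gene density in the difference was not tested.

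**Figure D5:**
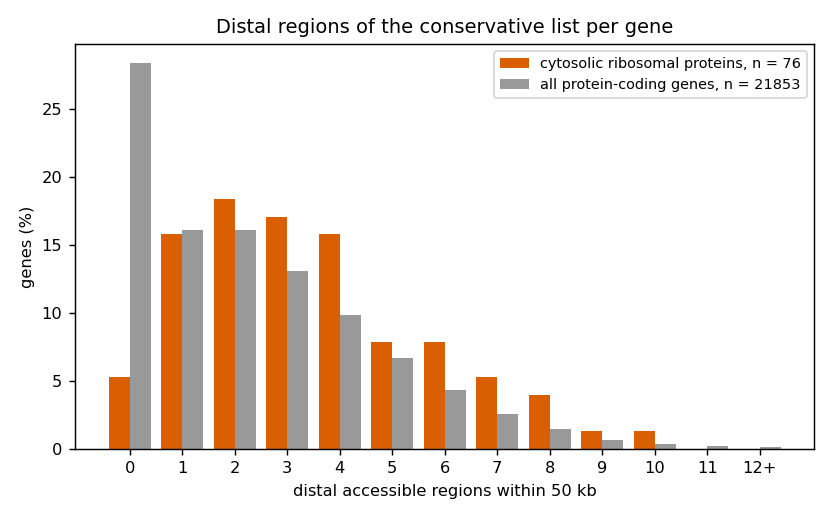
Share of genes (y axis, percent) by number of distal regions of the conservative list within 50 kb (x axis) for the 76 cytosolic ribosomal protein genes and all 21853 protein-coding genes. Of the ribosomal protein genes 5.26% have none, against 28.4% of all genes, and none has more than 10.

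The genes with most were Rpl32 with 10 distal regions, Rpl29 with 9, and Rpl14, Rpl37 and Rps14 with 8 each. Around Rpl32 the strongest lay 15.3 kb upstream in an intron of Efcab12 (chr6:115823739-115824350), with a fold of 10.6 in the conservative list and 10.3 and 9.50 in the longer lists of replicates 1 and 2. At Rpl14 all 8 were closer to the start of Rpl14 than to any other protein-coding start, and the strongest (chr9:120602556-120603333, intergenic, 31.5 kb downstream) had a fold of 8.03. At Rps14, 3 lay in introns of the gene as annotated, whose most upstream start and principal start both lie far upstream of its accessible promoter region.

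In all, 262 distinct distal regions were counted, 100 in introns, 29 in exons and 133 intergenic. Their median fold was 5.57, below the 6.36 of all 32778 distal regions, and 38.5% were in both IDR-thresholded lists against 38.9%. Only 10 lay inside a ribosomal protein gene, at 7 genes that include Rpl3, Rpl22, Rpl24, Rpl37a, Rps14 and Rps26, and 82 had a start of a ribosomal protein gene as their nearest, spread over 38 genes. The strongest lay 38.3 kb downstream of Rpl26 (chr11:68939531-68940154, intergenic, nearest start Odf4) with a fold of 13.8. It was followed by 1 at Rpl35 (chr2:38969728-38970488, intergenic, nearest start Wdr38) with 12.7 and 1 in an intron of Iqcg near Rpl35a (chr16:33023848-33024128) with 12.6. The next 2 had Rps23 as their nearest start and lay in introns of Atg10, 44.7 and 16.5 kb downstream, with folds of 12.5 and 12.2. The promoters of Rpl26, Rpl35 and Rps23 were among the weakest of the family, with folds of 4.97 to 5.67 in replicate 1. That of Rpl35a had 7.53 and 9.96. A relation between distal fold and promoter fold was not tested.

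Genes outside the naming rule gave a mixed picture. Of 4 ribosomal protein genes spelled otherwise, Rps3a1 had folds of 8.51 and 8.02 and Rack1 had 7.28 and 7.43. Fau, which encodes a small subunit protein fused to a ubiquitin-like protein, had 5.32 in replicate 1 and was missed in replicate 2, where the longer list gave 5.10. The mitochondrial ribosomal protein gene Mrpl49, on the same chromosome as Fau, had identical values, as when a region lies within reach of both genes. These values can therefore not be assigned to Fau alone. The folds of Rps3a1, Rack1 and Fau lay within the range of the 76 genes. Of 7 paralogues with longer names, 4 were accessible in both libraries: Rpl22l1 (10.9 and 9.83), Rps27l (10.5 and 9.68), Rpl36al (9.46 and 8.57) and Rpl7l1 (7.88 and 8.55). Rpl3l, known from striated muscle, and Rpl10l and Rpl39l, known from testis, were listed in none of the per-library lists. Rpl22l1 and Rps27l were thus above Rpl22 and Rps27 in replicate 1. In replicate 2 Rps27l was below Rps27, and Rpl22l1 and Rpl22 were nearly equal.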

How the data were processed

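Accessible chromatin was measured in 2 ATAC-seq libraries of MEP. The authors deposited peak lists in narrowPeak layout on mm10, per the read-me texts. In these lists the deposited ratio column was read as the fold of each peak over local background, and the deposited −log10 p column as its significance. Neither was scaled between libraries. Lists came from filtered alignments with excluded regions removed, per the read-me texts. Nothing in the sources used here names the aligner, the caller or a Tn5 shift. An IDR-thresholded and a longer pseudoreplicated list exist for each library, and conservative and replicated lists for both together.

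Peaks that overlapped or touched were merged on 21 main chromosomes with Python 3.11.15, numpy 2.4.6, pandas 2.3.3 and scipy 1.17.1, giving 26353 and 28142 regions in replicates 1 and 2. Each region kept the fold, significance and summit of its strongest peak. Genes and 54361 starts came from GENCODE M21. Where several regions overlapped the windows of a gene, the strongest was used. Percentiles count the accessible promoters below a value. The merging and calling were checked on simulated data. RefSeq promoters of 16530 genes were compared with the mm10 genome, and 16530 were identical. No tests were run: with 1 group, lists are described by counts and medians beside all genes. Wilson intervals cover counting error only, and depth is unknown.

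The genes, lists and motifs were chosen with earlier results of these data known. By rule the text names genes not accessible in both libraries, the 5 highest and lowest by fold, the 5 widest and narrowest, the 3 largest and smallest ratios of replicate 2 to replicate 1, the 5 with most distal regions, 18 fixed genes and the neighbours that share a region. Further examples were picked with their values in view. Some genes that the rule names are not reported here. Of the listed symbols Rps4l and Bxdc2 matched no protein-coding gene of the annotation.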

Additional observations from a re-analysis of the deposited data

How the results depend on the processing

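In total 43 alternatives were run, 6 of them added after the data were seen, and none turned a comparison with all genes around except the median summit position from RefSeq starts. Median width equalled that of all genes, at 764 bp, in the pseudoreplicated lists. With 1 library left out, the promoter count was 72 to 73 and the median width 758 to 807 bp. The median fold was then 7.16 to 7.55, its percentile 33 in both cases, the median summit position -36 to -26 bp, and the mean number of distal regions, counted in the list of the remaining library, 1.68 to 1.78. The fold percentile was 44.6 in the pseudoreplicated lists and 40.6 in the conservative list, which hold all 76 promoters. It was 34.7 with principal starts only, 34.2 with summits inside the window (added) and 35.2 without shared regions (added). The median width was 888 bp in the conservative list. The median summit position was -54 bp from RefSeq starts (added). Keeping the upper 50% of regions by fold left 28 promoters. The mean number of distal regions was 1.76 within 25 kb, 6.01 within 100 kb, 6.88 in the replicated list, 1.08 in the upper 50% by fold and 1.08 with nearest starts only. The cause was not tested beyond what each setting changes by construction. Principal starts alone removed Rpl17, Rps10 and Rps14. No paired analysis was possible because there is 1 group. Precision is limited by 2 libraries of unknown depth.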

Other observations

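Annotated processed pseudogenes named for a ribosomal protein gene were listed about as rarely as other processed pseudogenes. Of 288, 3 (1.04%) had a region of both IDR-thresholded lists within 1 kb of their start, against 1.63% of 10236 processed pseudogenes. Away from protein-coding starts (more than 2 kb), these were Rpl21-ps8 and Rpl5-ps2, 2 of 281 (0.712% against 1.25%). In the pseudoreplicated lists the share was 4.17% against 3.97%. Their sequences resemble their parents, and how reads that map to several places were treated is not given in the sources used here.

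Ribosomal protein genes are frequent hosts of small nucleolar RNAs, which guide chemical modification of ribosomal RNA and are cut from introns. In 29 of the 76 genes, 56 annotated small nucleolar RNAs lay inside the gene on its strand, of 365 in 256 protein-coding hosts. The promoter was accessible in both libraries in 28 of the 29 hosts, with a median fold of 7.36, and in 42 of the 47 other genes, with a median of 7.71. The host missing from replicate 2 was Rpl4, which holds 5.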
